A study of Arabidopsis thaliana with 6 samples.

Results

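Tetrapyrroles are the ring-shaped pigments and cofactors that include chlorophyll, heme, siroheme and the chromophore of phytochrome. In plastids chlorophyll, heme and bilins are made from glutamate through 5-aminolevulinic acid (ALA) and protoporphyrin IX. There the path divides into a magnesium branch that leads to chlorophyll and an iron branch that leads to heme and bilins. Dark-grown seedlings hold back ALA synthesis because free intermediates are phototoxic, and on transfer to light they make chlorophyll while the antenna is assembled. Chlorophyll b is made from chlorophyll a by an oxygenase and can be turned back into chlorophyll a by reductases, an interconversion known as the chlorophyll cycle.

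The genes described here are 39 Arabidopsis thaliana genes listed by identifier. They cover the route from glutamyl-tRNA to chlorophyll without the protochlorophyllide oxidoreductases. They also cover genes of heme, bilins and siroheme, a set of regulators, and the reduction of chlorophyll b. Of these, 36 had a mean of at least 10 normalized counts over the 6 libraries and were used, out of 36917 genes in the table. The remaining 3 were GUN4, HO4 and HO3, with means of 7.30, 1.98 and 0 normalized counts, and the least abundant gene used was HY2 at 83.7.

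The study asks what the loss of the B-box transcription factor BBX14 does to transcripts in seedlings moved out of darkness. RNA came from 3 samples carrying the allele bbx14-1 in the Col-0 accession and 3 samples of wild-type Col-0. All 6 were sown on sucrose-free half-strength medium, kept cold and dark at 4 °C for 3 days, given a light pulse of 2 h at 100 µmol photons per square metre and second, grown 3 days in darkness and then moved to light for 1 day. Libraries were strand-specific and depleted of ribosomal RNA. A single mutant allele was measured, the labels do not say that samples of a group were grown separately, so p-values reflect only how these samples vary, which may be technical.

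BBX14 (AT1G68520) itself had 649, 761 and 892 normalized counts in the libraries labelled bbx14-1, against 540, 683 and 517 in wild-type libraries. Its transcript was thus not lower under the mutant label (log2 fold change 0.40, standard error 0.13, adjusted p = 0.0726, limma), and the count does not tell an intact transcript from a disrupted one. The group is therefore called the libraries labelled bbx14-1. Recovered depth was 25505859 to 32621183 reads in the libraries labelled bbx14-1 and 20939505 to 32064650 in wild-type libraries, with 49.6% to 56.7% of the reads of a library on plastid genes. The green-tissue markers RBCS1A, LHCB1.3, RCA and HCEF1 all lay above the 98th percentile of level among genes tested, as the seedling label implies. Of these markers, 0 of 4 was called, where 4.65% of all genes tested were. The summed level of this list was 459600 to 568790 normalized counts in the libraries labelled bbx14-1 and 463520 to 511800 in wild-type libraries. These are whole seedlings, so fewer cells of a type and less RNA per cell cannot be told apart.

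Most of the 36 tetrapyrrole genes changed little, and the changes among them that passed the test were at the chlorophyll cycle. Of the 36 genes, 1 was called higher and 2 were called lower in the libraries labelled bbx14-1 (limma on log2 values, Benjamini-Hochberg adjusted p under 0.05 over 19003 genes). That is 8.33% of the genes, where 4.65% of all genes tested were called. By direction, 2.78% were called higher against a background of 2.51%, and 5.56% lower against 2.14%, so only a small excess separates these counts from the background. The genes called lower were NYC1 and HCAR, which act in the reduction of chlorophyll b, and the gene called higher was CAO, which makes chlorophyll b. The 95% interval of the fold change lay within 1.5-fold in both directions for 33 of the 36 genes. The exceptions were NYC1, HCAR and HY2, the least abundant member.

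**Figure D1:**
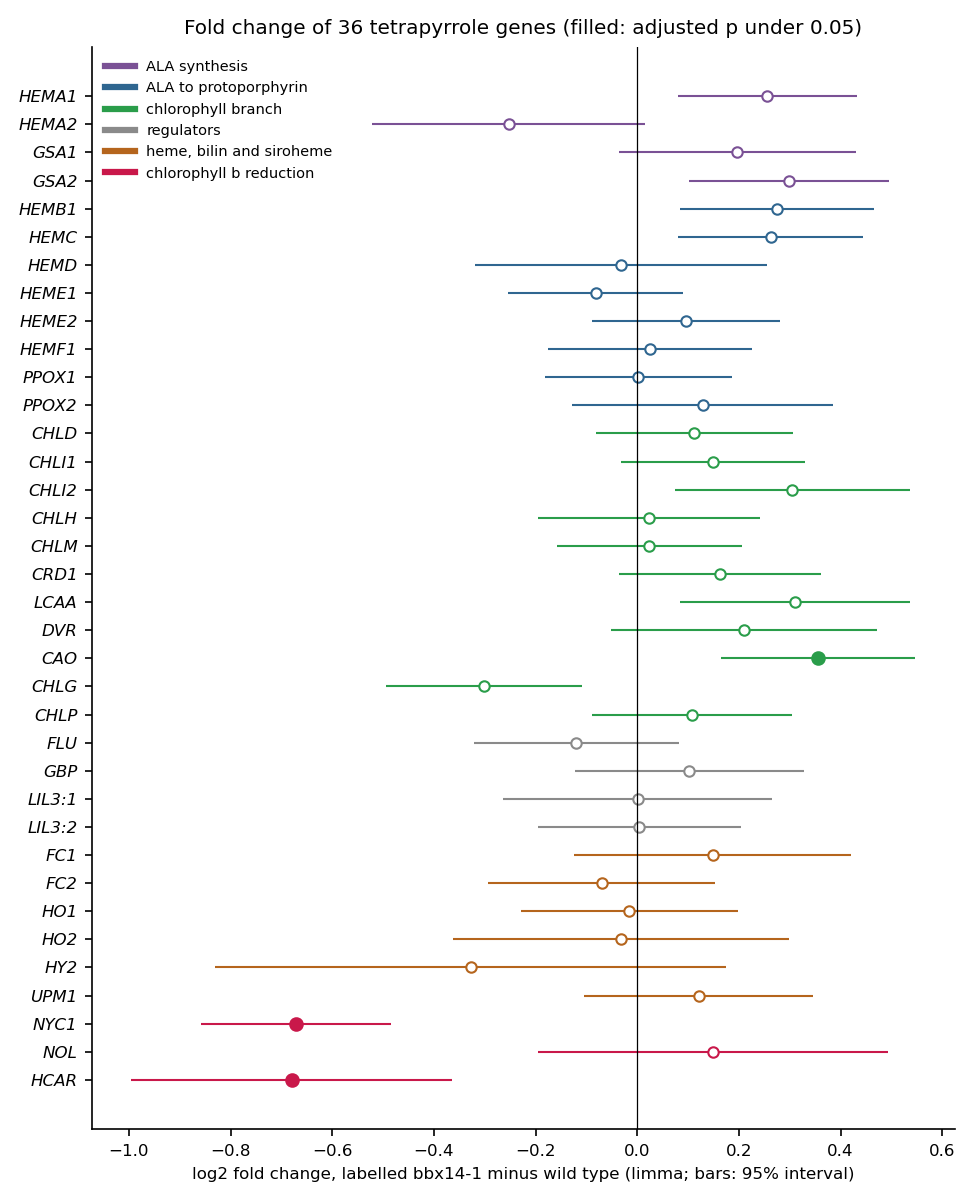
Log2 fold change of each of the 36 genes (x axis; labelled bbx14-1 minus wild type, log2 of normalized count plus 1) with its 95% interval from limma, ordered by pathway step down the page. Filled points passed the adjusted threshold; NYC1 and HCAR lie at -0.67 and -0.68 and CAO at 0.36, while the other 33 open points lie between -0.33 and 0.31.

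Separation of the libraries without a test was more common. For 14 of the 36 genes (38.9%) every library labelled bbx14-1 lay on one side of every wild-type library, against 21% of all genes tested. Of these, 9 lay above wild type (25.0%, background 10.4%) and 5 below (13.9%, background 10.6%). Positive fold changes were found for 25 of 36 genes, or 69.4%, where 50.5% of all genes tested had one. The median log2 fold change of the 36 genes was 0.10, against 0.0029 over all genes tested. At an unadjusted limma p under 0.05 there were 10 genes, 7 higher and 3 lower, and 16.7% of all genes tested passed that mark.

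**Figure D2:**
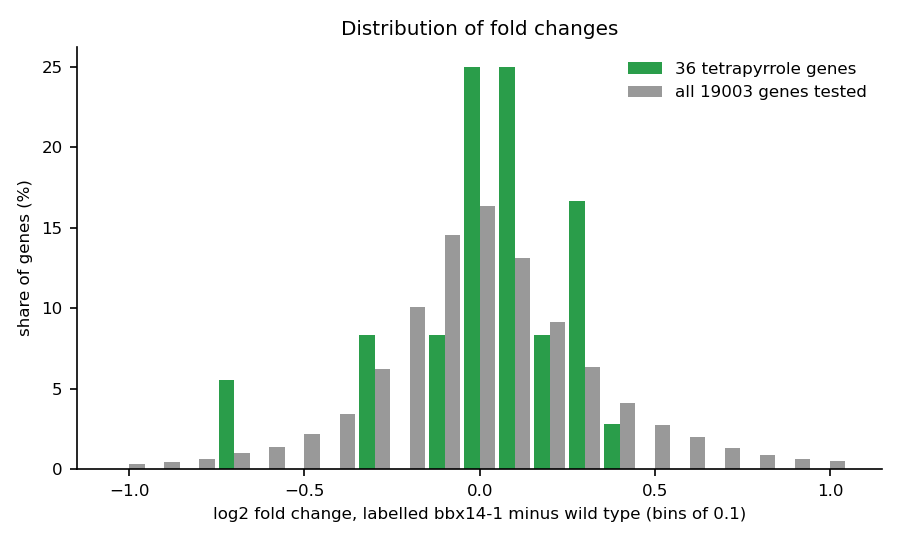
Share of genes (y axis, percent) by log2 fold change in bins of 0.1 (x axis; labelled bbx14-1 minus wild type) for the 36 tetrapyrrole genes and for all 19003 genes tested. Of the 36 genes, 9 fall in the bin centred on 0 and 9 in the bin centred on 0.10, and 2 stand alone in the bin centred on -0.70.

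Reduction of chlorophyll b to chlorophyll a runs through the chlorophyll b reductases NYC1 and NOL to 7-hydroxymethyl chlorophyll a, which HCAR then converts. NYC1 (AT4G13250) had 1742, 1630.3 and 1860 normalized counts in the libraries labelled bbx14-1, against 2978, 2570 and 2794 in wild-type libraries. Each library labelled bbx14-1 was below each wild-type library. The mean was 1744 ± 115 in the libraries labelled bbx14-1 and 2780.5 ± 204 in wild-type libraries (SD, n = 3 each), and the fitted level fell by 37.2%. On the log2 scale NYC1 fell by 0.67 with a standard error of 0.091 (adjusted p = 4.4e-05, limma). No other gene of the 36 had so small an adjusted p.

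HCAR (AT1G04620) moved by a like amount at a much lower level. It had 179, 179 and 160 normalized counts in the libraries labelled bbx14-1, against 249, 275 and 311 in wild-type libraries. The groups did not overlap, and the mean was 173 ± 11.1 in the libraries labelled bbx14-1 and 278 ± 31.0 in wild-type libraries (SD, n = 3 each). HCAR fell by 0.68 on the log2 scale with a standard error of 0.15 (adjusted p = 0.00851, limma). NOL (AT5G04900), the partner of NYC1, was not called. It had 185, 217 and 237 normalized counts in the libraries labelled bbx14-1, against 230.4, 172 and 175 in wild-type libraries. The groups of NOL overlapped and its log2 fold change was 0.15 with a 95% interval from -0.20 to 0.49 (adjusted p = 0.727, limma).

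CAO (AT1G44446), the chlorophyllide a oxygenase that forms the b pigments, changed in the other direction. It had 6067, 7207 and 5903 normalized counts in the libraries labelled bbx14-1, against 5089, 4607 and 5248 in wild-type libraries. All libraries labelled bbx14-1 were above all wild-type libraries, with a mean of 6392 ± 710.2 in the libraries labelled bbx14-1 and 4981 ± 333 in wild-type libraries (SD, n = 3 each). CAO rose by 0.36 on the log2 scale with a standard error of 0.092 (adjusted p = 0.0237, limma). Per kilobase of exon, the level of CAO was 3.11, 3.94 and 2.83 times that of NYC1 in the libraries labelled bbx14-1, against 1.52, 1.60 and 1.67 times in wild-type libraries. This ratio was formed after both genes had been seen to differ and describes the same values.

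Removing a library changed which of these calls stood. NYC1 was called in each of the 6 fits without a library (log2 fold change -0.73 to -0.62). With wild type replicate 3 left out, HCAR was at -0.60 and was no longer called (adjusted p = 0.0675, limma). CAO was no longer called in 3 of the 6 fits. It was at 0.27 once bbx14-1 replicate 2 was left out (adjusted p = 0.145, limma), at 0.37 when wild type replicate 1 was (adjusted p = 0.0818, limma) and at 0.30 when wild type replicate 2 was (adjusted p = 0.128, limma). All 3 calls were lost when the variance prior did not follow the mean level, with an adjusted p = 0.105 in limma for NYC1, 0.124 for HCAR and 0.292 for CAO, a setting in which 28 genes of 19003 were called.

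**Figure D3:**
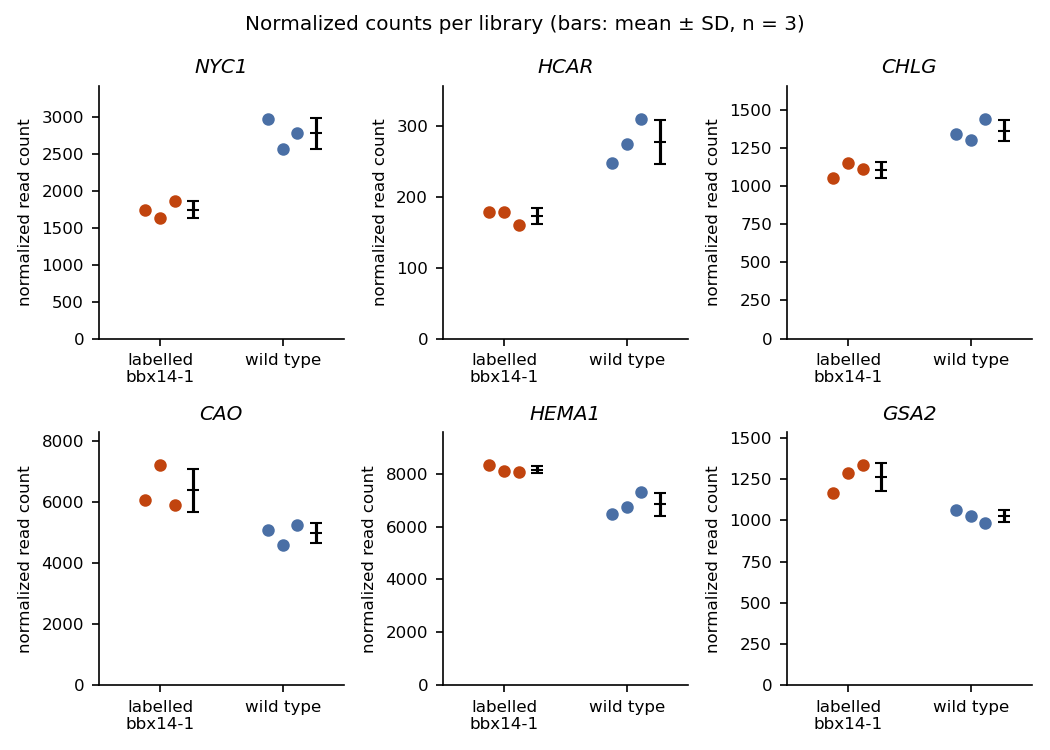
Normalized read count (y axis, from 0) in each library for NYC1, HCAR, CHLG, CAO, HEMA1 and GSA2, with the libraries labelled bbx14-1 left of wild type and bars for the mean ± SD (n = 3). In every panel the 2 groups are separate; NYC1, HCAR and CHLG are lower and CAO, HEMA1 and GSA2 higher under the bbx14-1 label, though only NYC1, HCAR and CAO passed the adjusted threshold.

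Marker lists of seed reserves and root tissue are given beside the chlorophyll cycle genes. Seed reserve transcripts were those of storage proteins and of the mobilisation of seed oil. They summed to 1012 to 1480 normalized counts in the libraries labelled bbx14-1 and 1951 to 2542 in wild-type libraries. Of 4 tested members, CRC and ICL were called lower, where 2.14% of all genes tested were. CRC, CRA1 and ICL lay below wild type in every library labelled bbx14-1 (3 of 4, background 10.6%). The groups of OLEO1 overlapped. Most of the seed reserve sum was ICL, the isocitrate lyase of oil mobilisation. ICL had 1087, 950.04 and 1420 normalized counts in the libraries labelled bbx14-1, against 1934, 2414 and 1844 in wild-type libraries. Among storage proteins, wild type replicate 1 stood apart: CRC had 24.0, 19.3 and 22.01 in the libraries labelled bbx14-1, against 276, 70.3 and 58.5 in wild-type libraries. CRA1 had 24.0, 25.8 and 36.01 in the libraries labelled bbx14-1, against 254, 42.7 and 40.3 in wild-type libraries. Root markers summed to 33354 to 41183 normalized counts in the libraries labelled bbx14-1 and 27158 to 30163 in wild-type libraries, nearly all of it from PYK10. Of 6 tested members, 0 was called, against 4.65% of all genes tested. PYK10 and COBL9 lay above wild type in every library labelled bbx14-1 (33.3% of the 6, background 10.4%). Their log2 fold changes were 0.32 and 1.59 (adjusted p = 0.0893 and 0.0669, limma). COBL9 averaged 58.5 normalized counts in the libraries labelled bbx14-1 and 24.2 in wild-type libraries. The groups of the other 4 overlapped. No gene of either list was at 0 in all 6 libraries, although SESA1 was seen in wild type replicate 1 alone and NRT2.1 and WOX5 had means under 10. The part of seed reserves or root tissue in the fall of NYC1 and HCAR was not tested.

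The promoter window of CAO, 1 of the 3 called genes, is shown as an example, and nothing is read from it about genes called higher or lower in general. It runs from 250 bases before to 50 bases after the annotated start of the gene on the coding strand, read from the RefSeq genome TAIR10.1. Capitals mark matches, on either strand, to 4 motifs: the G-box CACGTG, bound by bZIP and bHLH factors of light signalling; CCAATC, reported for GLK factors; the evening element AAAATATCT of clock-regulated genes; and the I-box core GATAAG. These motifs do not contain one another. The CAO window lies at chr1:16851222-16851521 on the minus strand.
CAO: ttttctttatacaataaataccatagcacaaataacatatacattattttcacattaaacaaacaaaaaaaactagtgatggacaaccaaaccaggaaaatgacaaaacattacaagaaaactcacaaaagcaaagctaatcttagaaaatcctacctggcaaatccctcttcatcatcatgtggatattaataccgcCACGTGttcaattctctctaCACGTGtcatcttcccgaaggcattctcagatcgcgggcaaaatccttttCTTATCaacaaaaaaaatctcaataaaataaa

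The CAO window holds a pair of G-boxes that begin 52 and 32 bases before the start, and an I-box core in reverse 18 bases after it. Over the promoters of all 39 genes, G-boxes were found in 7 (17.9%), against 7.68% of 27443 protein-coding promoters. Among the genes whose groups did not overlap, G-boxes were in 2 of 9 above wild type and in 1 of 5 below it. CCAATC was found in 4 of 39 windows (10.3%, against 12.3% of all promoters) and the I-box core in 7 (17.9%, against 14.6%). The evening element was in 1 window (2.56%, against 2.82% of all promoters), that of a gene whose libraries labelled bbx14-1 all lay below wild type. These are letter matches, not evidence of binding, and windows without a match say nothing about a factor.

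ALA synthesis is the controlled entry to the pathway, with glutamyl-tRNA reductase (HEMA1, HEMA2) followed by glutamate-1-semialdehyde aminotransferase (GSA1, GSA2). None of the 4 genes was called, where 4.65% of all genes tested were. HEMA1 (AT1G58290), the main light-induced reductase gene, had 8318, 8104 and 8056 normalized counts in the libraries labelled bbx14-1, against 6475, 6743 and 7305 in wild-type libraries. GSA2 (AT3G48730) had 1166.5, 1289 and 1334.5 normalized counts in the libraries labelled bbx14-1, against 1061, 1030.0 and 986 in wild-type libraries. Both genes lay above wild type in every library labelled bbx14-1, at log2 fold changes of 0.26 and 0.30, and both missed the threshold (adjusted p = 0.0914 and 0.0776, limma). HEMA2, the reductase gene associated with heme supply in non-green tissue, averaged 342 ± 45.2 in the libraries labelled bbx14-1 and 406 ± 23.1 in wild-type libraries (SD, n = 3 each; log2 fold change -0.25, adjusted p = 0.335, limma). GSA1 averaged 714 ± 66.6 in the libraries labelled bbx14-1 and 623 ± 62.6 in wild-type libraries (SD, n = 3 each; log2 fold change 0.20, adjusted p = 0.402, limma).

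From ALA to protoporphyrin IX, 0 of 8 genes was called (background 4.65%), and the median log2 fold change was 0.061. HEMB1 (AT1G69740, ALA dehydratase) had 1960.5, 2169 and 2384 normalized counts in the libraries labelled bbx14-1, against 1874, 1776 and 1718 in wild-type libraries. HEMC (AT5G08280, porphobilinogen deaminase) had 2450, 2750.2 and 2597 in the libraries labelled bbx14-1, against 2028, 2282 and 2191 in wild-type libraries. For these successive steps the groups did not overlap, and the log2 fold changes were 0.28 and 0.26 (adjusted p = 0.0963 and 0.0967, limma). For HEMB1, 12.2% of its 50-base exon windows occur elsewhere in the genome, so its count may hold reads of another locus.

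Later steps of the common route stayed nearer to wild type. HEME1 (uroporphyrinogen III decarboxylase) had 2741, 2681 and 2716 normalized counts in the libraries labelled bbx14-1, against 2953, 2803.5 and 2858 in wild-type libraries. PPOX2 (protoporphyrinogen oxidase) had 396, 378 and 401 in the libraries labelled bbx14-1, against 378, 374 and 325 in wild-type libraries. Both sets of values were separate between groups, yet the log2 fold changes of -0.08 and 0.13 did not pass (adjusted p = 0.692 and 0.673, limma). HEMD (uroporphyrinogen III synthase), HEME2, HEMF1 (coproporphyrinogen III oxidase) and PPOX1 had log2 fold changes of -0.03, 0.10, 0.03 and 0.0021, with overlapping groups.

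In the magnesium branch CAO alone of 11 genes was called (9.09%, against 4.65% of all genes tested). A positive fold change was found for 10 of the 11 (90.9%, against 50.5% of all genes tested). Under quantile normalization CHLH, CRD1 and CHLP of these 10 were at -0.041, -0.0052 and -0.0057. Magnesium chelatase inserts the metal with subunits H, D and I. CHLH (AT5G13630), the porphyrin-binding subunit also known as GUN5, was the most abundant of all 39 genes by count. It had 33322, 37946 and 40175 normalized counts in the libraries labelled bbx14-1, against 36286, 37248 and 35818 in wild-type libraries. The groups overlapped and the log2 fold change was 0.02 with a 95% interval from -0.19 to 0.24 (adjusted p = 0.947, limma). CHLI1 had 4475, 4959 and 4263 in the libraries labelled bbx14-1, against 3912, 4088.5 and 4340 in wild-type libraries. CHLD had 1980.5, 2335 and 2247 in the libraries labelled bbx14-1, against 1975, 2208 and 1887 in wild-type libraries. Neither was called, at log2 fold changes of 0.15 and 0.11 (adjusted p = 0.419 and 0.612, limma). CHLI2, the minor copy of subunit I, averaged 872 ± 33.6 in the libraries labelled bbx14-1 and 710.0 ± 109 in wild-type libraries (SD, n = 3 each). Its log2 fold change of 0.31 missed the threshold (adjusted p = 0.134, limma) and passed it without wild type replicate 3 (0.43, adjusted p = 0.0425, limma).

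Next come the methyltransferase CHLM, the oxidative cyclase with its subunit CRD1 and partner LCAA, and the divinyl reductase DVR. CHLM had 5459, 5118 and 5442 normalized counts in the libraries labelled bbx14-1, against 5311, 4758 and 5724 in wild-type libraries, which overlap (log2 fold change 0.02, adjusted p = 0.932, limma). CRD1 had 22633, 24988 and 26433 in the libraries labelled bbx14-1, against 21955, 22438 and 21625 in wild-type libraries. LCAA had 867, 952 and 1127 in the libraries labelled bbx14-1, against 719.9, 820.2 and 826 in wild-type libraries. Both cyclase genes were above wild type in all 3 libraries labelled bbx14-1, at log2 fold changes of 0.16 and 0.31, and neither passed (adjusted p = 0.423 and 0.118, limma). Under quantile normalization the value of CRD1 was -0.0052. DVR was at 0.21 with overlapping groups (adjusted p = 0.439, limma).

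The chlorophyll synthase gene CHLG (AT3G51820), which joins the phytyl tail to chlorophyllide, was the 1 gene of this branch with a negative fold change. It had 1055, 1156 and 1112 normalized counts in the libraries labelled bbx14-1, against 1346, 1308 and 1443 in wild-type libraries. Every library labelled bbx14-1 was below every wild-type library. The means were 1108 ± 51.1 in the libraries labelled bbx14-1 and 1366 ± 69.9 in wild-type libraries (SD, n = 3 each), a log2 fold change of -0.30 with a 95% interval from -0.49 to -0.11 that missed the adjusted threshold (adjusted p = 0.0672, limma). CHLP, the geranylgeranyl reductase that supplies the tail, was at 0.11 (adjusted p = 0.636, limma) and at -0.0057 under quantile normalization.

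Among regulators, 0 of 4 tested genes was called (background 4.65%). FLU, which represses glutamyl-tRNA reductase in darkness, had 846, 851 and 807 normalized counts in the libraries labelled bbx14-1, against 876, 897 and 949 in wild-type libraries. GBP, which anchors part of that reductase at membranes, had 564, 574 and 567 in the libraries labelled bbx14-1, against 503, 561 and 525 in wild-type libraries. Neither pair of groups overlapped, but the log2 fold changes of -0.12 and 0.10 were small (adjusted p = 0.602 and 0.706, limma). The light-harvesting-like genes LIL3:1 and LIL3:2, whose proteins hold the geranylgeranyl reductase, were at 0.00090 and 0.0043.

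GUN4, the activator of magnesium chelatase, was almost uncounted. It had 6.40, 7.52 and 11.0 normalized counts in the libraries labelled bbx14-1, against 0, 3.77 and 15.1 in wild-type libraries, and 3 reads are worth 2.40 to 3.77 such counts here. In TAIR10.1 it is a minus-strand gene at chr3:21948501-21949796, and 946 bases, 73.0% of its exons, overlap exons of AT3G59410 on the opposite strand. That neighbour had a mean of 563 normalized counts. Whether reads from the shared bases were withheld from GUN4 was not tested, since no source used here gives the strand setting of the counting, and no statement on GUN4 is made. Opposite-strand exon overlap was found for 17 of the 39 genes, with GUN4 the largest and LIL3:1 next at 28.2%.

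Among the heme, bilin and siroheme genes, 0 of 6 tested was called, where 4.65% of all genes tested were. No gene of this set separated the groups, where 21% of all genes tested did. Ferrochelatase inserts iron into protoporphyrin IX. FC1 had 572, 712.5 and 488 normalized counts in the libraries labelled bbx14-1, against 567, 563 and 458 in wild-type libraries. FC2 had 649, 807 and 728 in the libraries labelled bbx14-1, against 796, 715 and 776 in wild-type libraries. The log2 fold changes were 0.15 and -0.07 (adjusted p = 0.641 and 0.820, limma). HO1, the main heme oxygenase gene of the phytochrome chromophore route, had 1496, 1328 and 1454 in the libraries labelled bbx14-1, against 1413, 1260 and 1677 in wild-type libraries (log2 fold change -0.02, adjusted p = 0.964, limma). HY2, phytochromobilin synthase, had 77.6, 87.1 and 58.0 in the libraries labelled bbx14-1, against 104, 102 and 73.6 in wild-type libraries. HY2 had the widest interval of the 36 genes, from -0.83 to 0.18, around a log2 fold change of -0.33 (adjusted p = 0.554, limma). HO2 and UPM1, the methyltransferase that leads to siroheme, were at -0.03 and 0.12. HO3 was at 0 in all 6 libraries and HO4 did not exceed 5.04 normalized counts in any.

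Levels differed far more between genes than between groups. Per kilobase of exon, the mean over all 6 libraries ran from 42.3 normalized counts for HY2 to 15637 for CRD1. CHLH and CHLP followed CRD1 at 7736 and 7143 normalized counts per kilobase. Of the 36 genes, 35 were above the median level of the genes tested and 18 were in the top 10% by count. Within the short route of chlorophyll b reduction, NYC1 stood at 1094.5 normalized counts per kilobase, NOL at 145 and HCAR at 102. The level of all 39 genes together was 0.480% to 0.547% of the normalized counts of a library labelled bbx14-1 and 0.456% to 0.475% of those of a wild-type library. CHLH, CRD1 and CHLP made up 56.7% to 60.1% of that sum in the libraries labelled bbx14-1 and 57.4% to 59.2% in wild-type libraries. The counts of a library include plastid genes, whose share of reads was lowest (49.6%) in bbx14-1 replicate 3, the library at 0.547%. The part of the plastid share in the difference between groups was not tested.

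**Figure D4:**
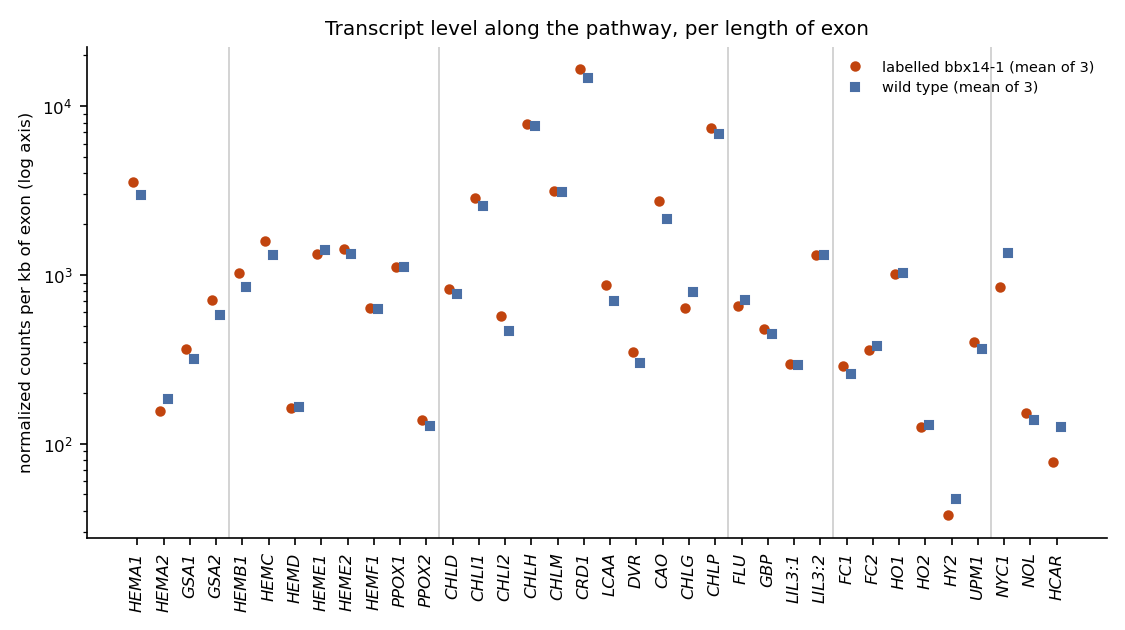
Mean level of each gene (y axis, log scale; normalized counts per kilobase of exon) in the libraries labelled bbx14-1 and in wild-type libraries, in pathway order with grey lines between steps. CRD1, CHLH and CHLP stand highest and HY2 lowest, and the 2 marks of a gene lie farthest apart for NYC1 and HCAR.

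Several steps are encoded by more than 1 gene, and the balance between copies was compared per kilobase of exon in 9 families with exact permutation of the 3 and 3 libraries, two-sided. This design cannot give a p below 0.1. Each share is formed from the same counts as the fold changes above and is not a separate measurement. NYC1 made up 86.5%, 83.6% and 84.2% of chlorophyll b reductase transcripts in the libraries labelled bbx14-1, against 89.7%, 91.0% and 91.5% in wild-type libraries. The mean shares differed by -6.02 percentage points (labelled bbx14-1 minus wild type; exact permutation p = 0.1, adjusted p = 0.45 over 9 families). HEMA1 made up 95.3%, 96.1% and 96.0% of reductase transcripts in the libraries labelled bbx14-1, against 94.1%, 94.1% and 94.2% in wild-type libraries (exact permutation p = 0.1, adjusted p = 0.45). In both families the groups did not overlap. In the other 7 families they overlapped, with exact permutation p from 0.2 to 1.

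**Figure D5:**
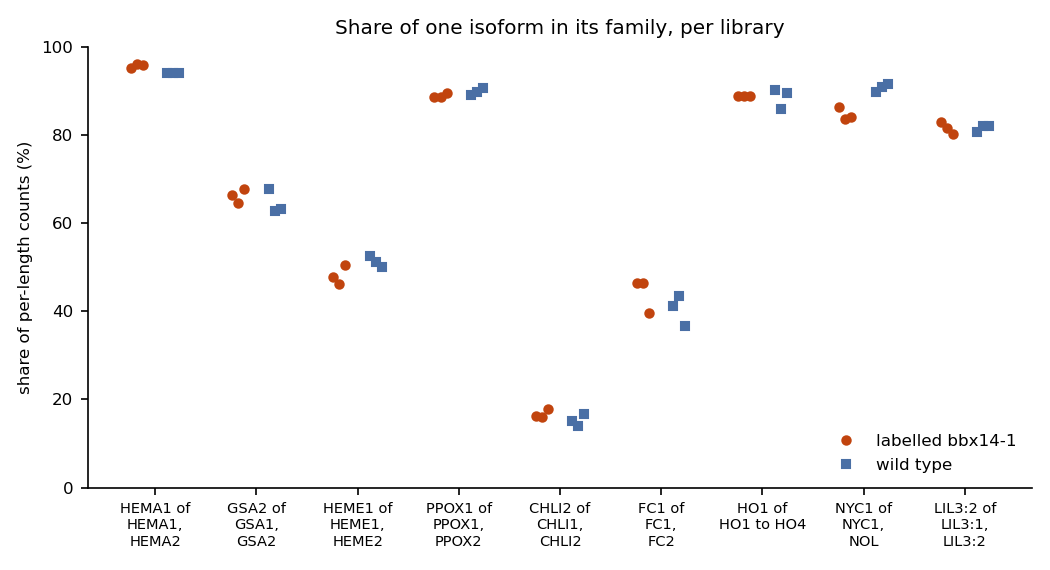
Share of one isoform in the summed per-kilobase level of its family (y axis, percent) for 9 families, with 1 point per library, libraries labelled bbx14-1 left of wild type. NYC1 is lower and HEMA1 slightly higher in all 3 libraries labelled bbx14-1, and the other families overlap.

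Several of the genes are neighbours on the chromosome. HEMA1 and HO4 lie 1355 bases apart on chromosome 1, HO3 and HEMB1 3039 bases apart on the same chromosome, and HEMD and HO2 786 bases apart on chromosome 2, each pair on 1 strand. The pairs with HO4 and HO3 did not share levels: HEMA1 averaged 7500.1 normalized counts over the 6 libraries and HO4 1.98, HEMB1 averaged 1980.1 and HO3 0. HEMD and HO2 averaged 280 and 211 and both had a log2 fold change of -0.03.

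Of 22 further genes of the pathway and of chlorophyll breakdown, 20 were tested, and 3 were called higher and 1 lower. Over all genes tested, 2.51% were called higher and 2.14% lower. This list thus held more calls than the 36 genes, of which 1 was called higher and 2 lower. The further genes called higher were the protochlorophyllide oxidoreductase genes PORA, PORB and PORC, at log2 fold changes of 1.61, 0.48 and 0.51 (adjusted p = 0.0156, 0.00176 and 0.00345, limma). PORA was the least abundant of them, with 41.6, 40.8 and 56.0 normalized counts in the libraries labelled bbx14-1, against 11.8, 17.6 and 14.1 in wild-type libraries. PORB had 5313, 4772 and 5886 in the libraries labelled bbx14-1, against 3746, 3796 and 3907 in wild-type libraries. PORC had 953, 1062 and 1008 in the libraries labelled bbx14-1, against 774, 646 and 704 in wild-type libraries. The further gene called lower was BCM2 (AT4G17840), whose product is reported to restrain chlorophyll breakdown. BCM2 had 441, 447 and 484 normalized counts in the libraries labelled bbx14-1, against 744, 653 and 652 in wild-type libraries. The groups were separate and BCM2 fell by 0.58 on the log2 scale (adjusted p = 0.00229, limma). Its relative BCM1 was at -0.0054. The breakdown genes SGR1, SGR2, PPH, PAO and RCCR were not called, at log2 fold changes from -1.08 for SGR2 to 0.075 for SGR1. SGR2 averaged 13.1 normalized counts in the libraries labelled bbx14-1 and 29.8 in wild-type libraries. SGR2, PPH (-0.19) and PAO (-0.25) lay below wild type in every library labelled bbx14-1. So did TIC55, which was not called either (-0.36, adjusted p = 0.0924, limma). The groups of SGR1 and RCCR overlapped. Of the 20 tested genes, 10 had separate groups, where 21% of all genes tested did. Of these, 3 lay above wild type (background 10.4%) and 7 below (background 10.6%). The 7 below include GLURS, the plastid glutamyl-tRNA synthetase gene (-0.25), and NTRC (-0.22). Neither GLURS nor NTRC was called (adjusted p = 0.257 and 0.246, limma). GLK1 and GLK2, activators of many chlorophyll genes, were at -0.09 and 0.20 and were not called (adjusted p = 0.801 and 0.465, limma).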

How the data were processed

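Strand-specific libraries from RNA depleted of ribosomal RNA were made from 6 samples, 3 labelled bbx14-1 and 3 wild type. The values deposited by the authors are read counts per gene divided by a size factor of each library, as the name of the table shows. Per the submitters' processing notes, the tools include TopHat2 2.1.1, featureCounts, DESeq2, FastQC and Trimmomatic, and the build is TAIR10. The annotation release, the strand setting and the handling of multiply mapped reads were not given in the sources used here. Every value was a whole multiple of 1 read within 0.01, so reads were recovered for 100% of values. Count tests by edgeR were not used, and voom was applied to these reads instead.

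Genes with a mean of at least 10 were tested with limma 3.58.1 (R 4.3.3) on log2(normalized count + 1), which understates changes of low counts, with a variance trend, two-sided, Benjamini-Hochberg adjusted over 19003 genes; the fit was tested on simulated data. Fold changes are labelled bbx14-1 minus wild type. Exon lengths, overlaps and promoters came from TAIR10.1, to which 36632 of 36917 identifiers matched. Within groups, recovered reads scaled by library total differed by more than sampling noise (chi-square per degree of freedom at least 7.78). That total includes plastid genes, so a difference in plastid share also counts as spread in this value. Members, lists and motifs were chosen with earlier results of these data known. Values in every library are given for genes called, genes with separate groups and 15 chosen genes; NOL was added after its values were seen. The promoter windows of NYC1 and HCAR are not reported here.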

Additional observations from a re-analysis of the deposited data

How the results depend on the processing

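Without the variance trend, limma called 28 genes (13 higher, 15 lower) and 0 of the 36 tetrapyrrole genes, against 883 (477 and 406) and 3; the cause was not tested. Leaving out a library gave 525 to 766 calls, 279 to 440 higher and 246 to 406 lower, and 2 to 3 of the 36 genes; dropping wild type replicate 1 left 525 calls (279 higher, 246 lower), dropping wild type replicate 3 left 577 (315 and 262), and 290 genes were higher once bbx14-1 replicate 2 was dropped. With the replicate block 915 genes were called and 3 of the 36, and no call of a tetrapyrrole gene changed. Same-numbered libraries showed no shared deviation, with correlations of 0.042, 0.017 and -0.03, against -0.091 to 0.067 for differently numbered ones. These values do not show whether same-numbered libraries were handled together.

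Values near 0 turned sign in some settings. Under scaling by the nuclear total PPOX1, LIL3:1 and LIL3:2 were at -0.0045, -0.0057 and -0.0023. Under quantile normalization CHLH, CRD1, CHLP and HO1 were at -0.041, -0.0052, -0.0057 and 0.00064, and LIL3:1 was at -0.0055 with voom. Without a library the ranges were -0.096 to 0.051 for HEMD, -0.028 to 0.071 for HEMF1, -0.059 to 0.042 for PPOX1, -0.036 to 0.099 for CHLH, -0.047 to 0.086 for CHLM, -0.13 to 0.12 for LIL3:1, -0.063 to 0.064 for LIL3:2, -0.15 to 0.010 for FC2, -0.11 to 0.094 for HO1 and -0.15 to 0.061 for HO2. The family shares of HO1 and LIL3:2 differed by -1.08 to 1.14 and -0.64 to 0.68 percentage points. The planned fits with edgeR and DESeq2 were not run. GUN4, HO3 and HO4 had means under 10 normalized counts and were not tested. Depth limits HO4, with at most 5.04 normalized counts in a library, and HO3, for which 0 reads allow up to 3 reads in each library.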
